A study of Mus musculus with 26 samples.

Results

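The germline genes described here were 10 genes taken by name, Dazl, Ddx4, Mael, Asz1, Tdrd1, Sycp1, Sycp3, Syce1, Hormad1 and Slc25a31, out of 21938 protein-coding genes of the GENCODE M21 annotation of mm10. The rule that defines them is the list of names and sets no threshold on a measured value. The study tagged KH2 mouse embryonic stem cells (mESC) with Tn5 transposase carrying methylated adaptors, converted the DNA with bisulfite and read accessibility and DNA methylation from the same fragments. The report uses 4 M-ATAC samples (adaptors methylated, DNA converted), 2 M-ATAC-NC samples (the same adaptors without conversion), 2 ATAC samples (Nextera adaptors), the matching CTCF-M-ChIP, CTCF-M-ChIP-NC and CTCF-ChIP groups of 2 samples each, and the RNA-seq of 2 WT samples, which the authors merged into a single expression column. Per the study's methods the mESC were grown with LIF and serum on irradiated feeder fibroblasts. The feeders were removed by letting them settle before the mESC were collected. The methods do not describe the cells of the RNA-seq separately. None of these groups carried a KLF4 deletion. The closing section also touches KLF4 region lists of Klf4-/- mESC, either without KLF4 or re-expressing WT or R462A mutant KLF4, with 2 samples each. Per the study's methods the re-expressing cells were infected with lentivirus, selected with puromycin and induced with doxycycline for 2 days.

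Genes of this kind are used in germ cells and are repressed in most other cells of the body. Many of their promoters are rich in CpG and acquire DNA methylation in the embryo around implantation, through DNMT3B. In mESC they are also bound by a variant Polycomb complex, PRC1.6, whose subunits E2F6 with its partner DP1 and MGA with its partner MAX recognise E2F letters and the E-box CACGTG. The group is therefore often described as silenced by promoter methylation, and that description was checked against the RNA and the methylation reads before it was used.

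The description could not be taken over for the whole set. RNA stood at or above 1 TPM for all members except Asz1. Of the 7 members with methylation reads at the promoter, 5 were methylated at 20% or less and 2, Asz1 and Slc25a31, above it. The Dazl reads lay only downstream of its outermost start. All these methylation reads come from accessible fragments alone, and the other 3 members have no methylation value, so methylation of closed copies was not measured. The median of the 7 was nevertheless 13.2%, against 0.313% over all protein-coding genes with reads. The genes are accordingly called germline genes below.

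The promoters were first compared by sequence. Each gene was represented by 300 bases of its RefSeq promoter (GRCm38.p6), 250 before the start and 50 after it. All 10 members were matched, as were 16522 protein-coding genes in all. The ratio of observed to expected CpG ran from 0.625 at Syce1 to 0.978 at Ddx4, with a median of 0.782, against a median of 0.599 over all promoters. The letters CACGTG, which read the same on both strands, were found in 7 of the 10 members and in 8.12% of all promoters. The letters TTCCCGC, searched on both strands, were found in 4 of the 10 and in 6.21% of all promoters. The 4 with TTCCCGC were among the 7 with CACGTG, so that 7 members had either motif, against 13.7% of all promoters. Dazl, Syce1 and Asz1 had neither. No E-box overlapped the E2F letters. Other germline genes also carried these letters. Of 50 matched promoters in the 3 further germline lists described below, 12 had CACGTG, 11 had TTCCCGC and 21 had either.

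The sites are printed below because the E-box is found in most members, and the E2F letters in some of these. The rule for the members sets no condition on these letters. How the names were chosen is not stated, so the counts may not be independent of that choice. Every run is 5′ to 3′ on the strand of the gene, with the matched letters in capitals.
Ddx4 E2F letters, chr13:112652429-112652457: ccgtccatgggGCGGGAAgtcgcgcgccg
Ddx4 E-box, chr13:112652322-112652351: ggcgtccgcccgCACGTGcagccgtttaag
Mael E-box, chr1:166238950-166238979: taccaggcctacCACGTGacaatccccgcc
Tdrd1 E-box, chr19:56826186-56826215: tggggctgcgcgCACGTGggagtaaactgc
Sycp1 E-box, chr3:102936177-102936206: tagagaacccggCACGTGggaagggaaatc
Sycp3 E2F letters, chr10:88459429-88459457: aggaaggaacaGCGGGAAagtgctgcttc
Sycp3 E-box, upstream copy, chr10:88459511-88459540: gccgttggctccCACGTGagaacgggcatg
Sycp3 E-box, downstream copy, chr10:88459532-88459561: acgggcatggagCACGTGctaggaggcggg
Hormad1 E2F letters, chr3:95559571-95559599: cgcagcttttgGCGGGAAtagtggtctgg
Hormad1 E-box, upstream copy, chr3:95559608-95559637: caaagggtgcgcCACGTGccagtgacagtt
Hormad1 E-box, downstream copy, chr3:95559645-95559674: atgcgcactgcgCACGTGctgaccggagcg
Slc25a31 E-box, chr3:40708766-40708795: cgcaactggaaaCACGTGttatggtcacat
Slc25a31 E2F letters, chr3:40708879-40708907: cagcgcccgctTTCCCGCcagggtaaagc

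The search window limits how far from the start an E-box could be found. The first base of the E-box stood 11 bases before the RefSeq start at Tdrd1, 29 before it at Ddx4, 94 before it at Sycp1 and 223 before it at Mael, which was the most distant. Sycp3 and Hormad1 had a pair each, beginning at 64 and 43 bases before the start in Sycp3 and at 57 and 20 bases before it in Hormad1. A match is a description of the letters and does not show that a protein bound there.

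The RNA level was taken from the merged RNA-seq in TPM, a value scaled for transcript length, so that genes can be set beside each other. It has no replicate error, because the 2 samples were merged. In such bulk values fewer cells of a type and less RNA per cell cannot be told apart. Only 1 of the 10 members was under 1 TPM, against 42.9% of the 21607 protein-coding genes in the table. The median of the members was 8.25 TPM, and that of the protein-coding genes was 2.77 TPM. No member was listed at 0, while 4555 protein-coding genes were, and the median of the protein-coding genes above 0 was 8.11 TPM, close to that of the members.

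Among the members that handle RNA in germ cells, Ddx4, a DEAD-box RNA helicase of the germ granule, had 31.79 TPM. Mael, a piRNA pathway protein of the nuage, had 13.28 TPM, and Dazl, an RNA-binding regulator of translation in germ cells, had 12.67 TPM. Tdrd1, a Tudor domain protein that binds PIWI proteins, had 1.6 TPM. Asz1, an ankyrin repeat protein needed for piRNA production, stood at 0.04 TPM and was the lowest member. The RNA class thus held both strongly and barely measured genes.

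Among the members that build the meiotic chromosome axis and the synaptonemal complex, Sycp3, a component of the axis, was highest at 56.30 TPM. Counting did not use strand, and Sycp3 lies inside the opposite-strand gene Chpt1, which had 30.95 TPM, and 660 of the 1264 exon bases of Sycp3 are also exon of Chpt1, so reads from these bases cannot be told apart. Syce1, a central element protein, had 8.54 TPM, and Hormad1, an axis protein that monitors synapsis, had 7.97 TPM. Sycp1, the transverse filament of the complex, was lower at 2.80 TPM. Slc25a31, the ADP/ATP carrier used in the male germ line, had 1.45 TPM. The protein-coding overlap at Sycp3 was the only one, and the other overlapping genes were pseudogenes at 0.08 TPM or less.

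**Figure D1:**
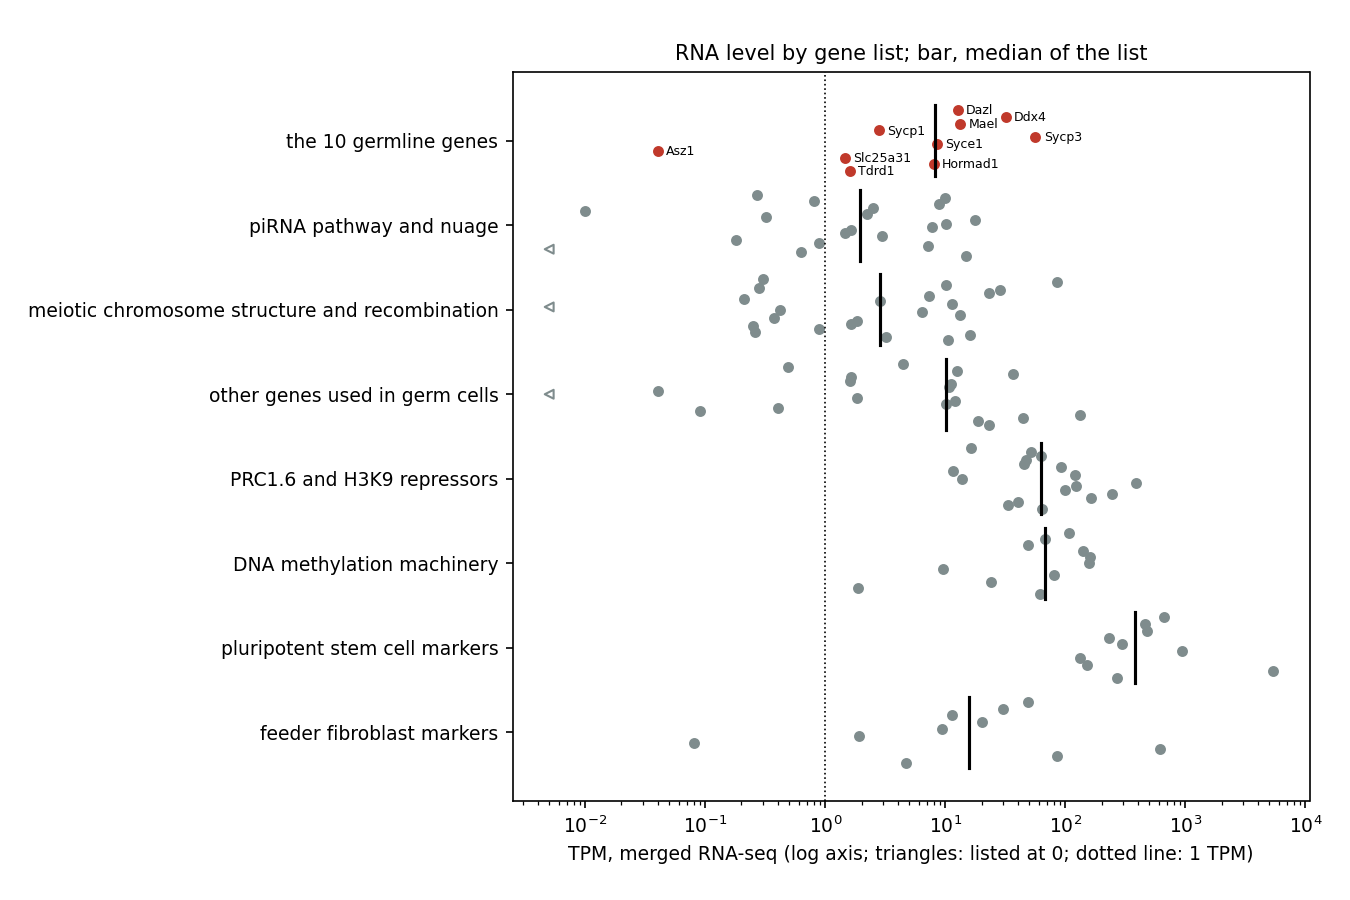
RNA level of each gene in the merged RNA-seq, in TPM on a log axis, with one row for each gene list, one point for each gene and a bar at the median of the list. Asz1, at 0.04 TPM, is the only one of the 10 germline genes left of the dotted line at 1 TPM.

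The RNA of repressor and DNA methylation genes was read from the same samples, while binding of their products was not analysed here. The 17 genes of PRC1.6 and of H3K9 methylation ran from 11.50 to 389.49 TPM, with E2f6 at 16.22, Mga at 51.59, Max at 62.88 and Pcgf6 at 45.41 TPM. The highest were Cbx3 with 389.49, the deacetylase genes Hdac1 and Hdac2 with 243.33 and 162.13, Wdr5 with 121.93 and Rybp with 119.24 TPM. The 11 genes of the DNA methylation machinery had a median of 67.5 TPM, with Uhrf1, the cofactor of the maintenance methyltransferase, highest at 160.69 TPM, followed by Hells, a chromatin remodeller, with 157.26, Dnmt3l with 140.51 and Dnmt1 with 106.69 TPM. Dnmt3b, the de novo methyltransferase, had 48.62 TPM, and Tet1, a dioxygenase that oxidises 5-methylcytosine, had 80.05 TPM. The lowest of these 11 was Tet3, another dioxygenase of the family, at 1.86 TPM. No promoter of either list was over 20% methylated, and their medians were 0.195% and 0.445%. The 10 stem cell markers had between 132.29 and 5393.76 TPM, with Pou5f1 at 656.93. Of the 10 feeder fibroblast markers 1, Lum at 0.08 TPM, was under 1 TPM, and the median of the list was 15.7 TPM. The highest were Fn1 with 611.6, Acta2 with 85.30 and Col1a1 with 48.69 TPM. Dcn, Pdgfrb and Postn were low, with 1.92, 4.71 and 9.35 TPM. The part that leftover feeder cells had in the germline RNA was not tested.

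Accessibility was asked next, as a region called by MACS2 that overlapped the stretch within 1 kb of any annotated start of the gene. In the merged M-ATAC data 7 of the 10 members had such a region, and 64.8% of all protein-coding genes did. Sycp1, Hormad1 and Tdrd1 had none. The fold enrichment over local background was 15.3 at Dazl, 8.33 at the stronger of the Sycp3 regions and 5.41 at Asz1. Ddx4, Mael, Syce1 and Slc25a31 shared a value of 7.49, with a −log10 q of 11.2 each. Dazl stood in the upper part of the promoter regions and the others in the lower part, since 24.8% of the genes with a region had a fold under 7.49 and 31.4% a fold under 8.33, while 76.6% lay under that of Dazl.

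The Dazl region was the only one found in every library. It spanned 50292660 to 50293057 on chromosome 17, from 579 to 976 bp downstream of the outermost gene start, over untranslated exon sequence that holds an alternative start. Its fold enrichment was 14.4, 9, 8.36 and 6.57 in M-ATAC replicates 1 to 4, 5.20 and 6.64 in M-ATAC-NC, and 9.43 and 7.31 in ATAC. The M-ATAC values overlapped both of the unconverted groups, and no library lacked the region. None of the Dazl regions reached the outermost start.

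The Mael region, from 203 bp before to 92 bp after the start, was called in 5 of the 8 libraries. Its fold was 3.83 in M-ATAC replicate 1, 5.85 and 6.85 in M-ATAC-NC, and 3.81 and 6.55 in ATAC, and it was not called in the other M-ATAC replicates. Syce1 was likewise called in 5 libraries, with 5.35 in M-ATAC replicate 3, 7.80 and 4.56 in M-ATAC-NC, and 5.48 and 5.79 in ATAC. Both genes were therefore called in all 4 libraries without conversion and in 1 of the 4 with it.

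Ddx4 was called in 1 library of each group, with a fold of 4.57 in M-ATAC replicate 3, 4.94 in M-ATAC-NC replicate 2 and 5.79 in ATAC replicate 2. Sycp3 was called at its start in M-ATAC replicates 1 and 2, with 4.96 and 4.88, and in M-ATAC-NC replicate 2, with 6.78, and in neither ATAC library. A further Sycp3 region, the one with the fold of 8.33, lay in an intron from 770 to 1171 bp downstream of the gene start and appeared in the merged data alone. Slc25a31 was called in ATAC replicate 2 with a fold of 4.55 and in no M-ATAC replicate.

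Asz1 was not called in any of the 8 libraries, although the merged data gave it a region of 138 bp on chromosome 6, from 18109060 to 18109197, that ended at the gene start. Sycp1 and Hormad1 went the other way, with no merged M-ATAC region but a fold of 3.72 at Sycp1 in ATAC replicate 2 and of 3.95 at Hormad1 in M-ATAC-NC replicate 2. Tdrd1 had no region in any library.

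**Figure D2:**
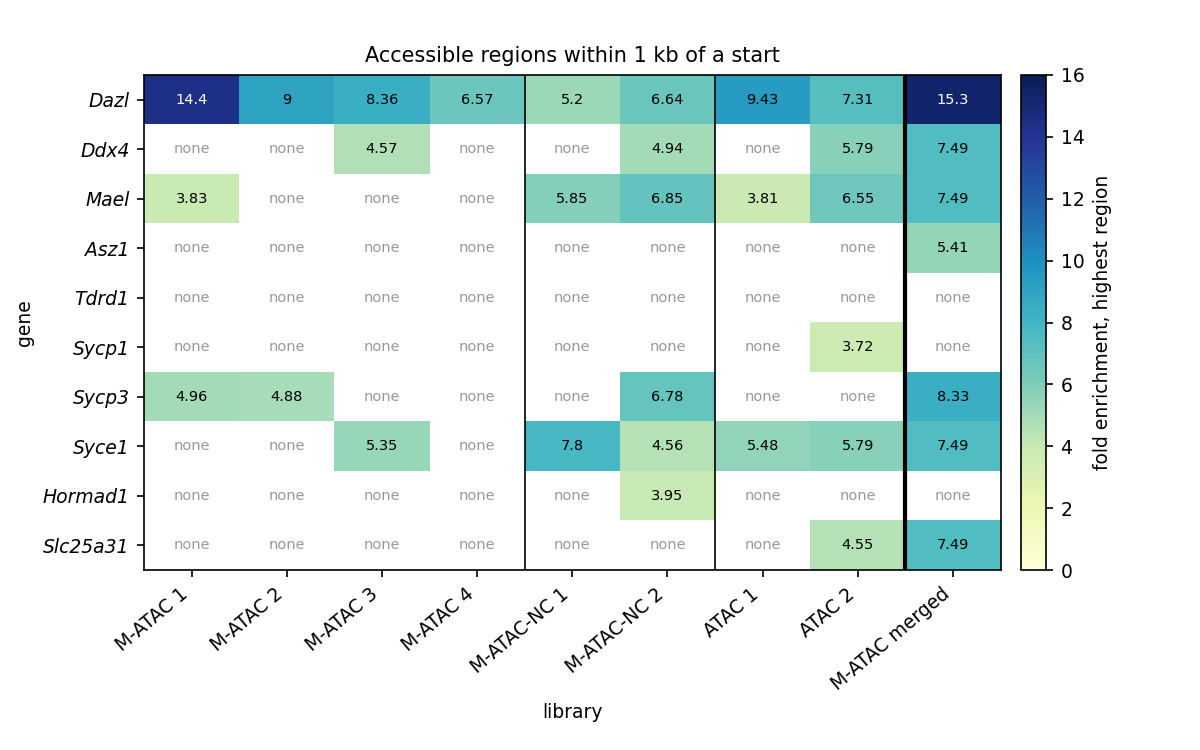
Fold enrichment of the strongest region within 1 kb of a start, for each of the 10 germline genes (rows) in each library and in the merged M-ATAC data (columns), with "none" where no region was called. Dazl is filled in all 8 libraries, Tdrd1 in none, and Asz1 only in the merged column.

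The question behind the libraries without conversion is whether bisulfite treatment changes what is called. Members with a region numbered 3, 2, 3 and 1 in M-ATAC replicates 1 to 4, against 47.9%, 50.4%, 46.9% and 45.8% of all protein-coding genes. They numbered 3 and 6 in M-ATAC-NC, against 52.0% and 55.8% of genes, and 3 and 6 in ATAC, against 48.3% and 53.9%. Every M-ATAC replicate was at or below the lowest of the other libraries, with ties at 3. The mean was 2.25 ± 0.957 (SD, n = 4) in M-ATAC and 4.50 ± 2.12 (SD, n = 2) in each of the other groups. The difference of −2.25 had p = 0.267 against M-ATAC-NC and p = 0.267 against ATAC in an exact two-sided permutation test over samples, whose smallest possible p is 0.0667, and 0.5 after Benjamini-Hochberg adjustment over the 6 comparisons made here. M-ATAC-NC and ATAC had the same mean (difference 0, p = 1, exact permutation test, smallest possible p = 0.333). Replicate 2 of each group without conversion carried much of the difference, since it was −0.75 without M-ATAC-NC replicate 2 and −0.75 without ATAC replicate 2. The number of regions ran from 24113 to 32999 over the 8 libraries and was highest in M-ATAC-NC replicate 2, and the part of depth in these counts was not tested. The labels do not say that replicates were separate cultures, so these p-values measure only the spread between the samples. Per the study's methods the unconverted controls were aliquots set aside before conversion, so they are not independent of the converted samples.

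**Figure D3:**
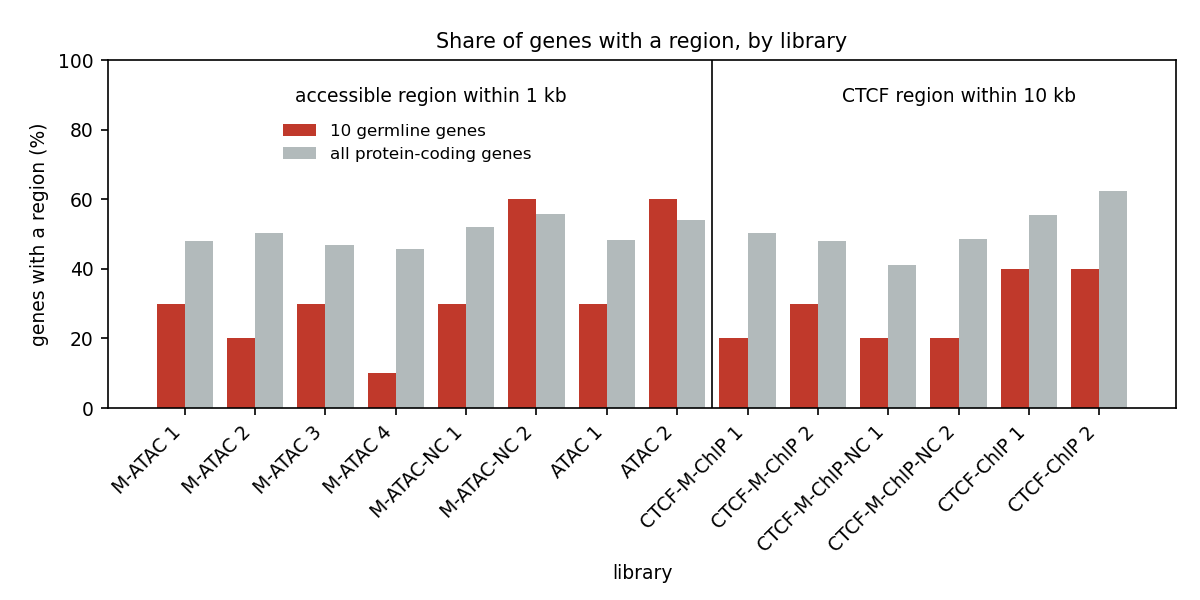
Share of the 10 germline genes (red) and of all protein-coding genes (grey) with an accessible region within 1 kb of a start (left) or a CTCF region within 10 kb (right), in percent, for each library. The germline share reaches the background share only in M-ATAC-NC replicate 2 and ATAC replicate 2, with 6 of 10 genes each.

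Methylation was read from the merged M-ATAC table, which gives the methylated and unmethylated reads at each cytosine of a CpG inside a region. Cytosines within 1 kb of a start were used if they had at least 5 reads, and a gene was compared with others if it had at least 5 such cytosines. The reads come from fragments that Tn5 cut, so they describe the accessible copies of a promoter and not all copies. At 5 reads the level of a cytosine moves in steps of 20%. Intervals are 95% Wilson intervals on pooled reads; they cover counting error only, and are too narrow where a fragment was read at several cytosines.

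Over the 7 members with reads, 192 of 2254 reads were methylated, or 8.52% (interval 7.44 to 9.74%, 236 cytosines). Dazl held most of those reads, and without it the level was 18.1% (15.8 to 20.6%). Over all protein-coding genes it was 0.504%, with a median of 0.313% per gene, while the median of the 7 members was 13.2%. Of the members, 2 of 7 stood above 20%, against 0.869% of 13471 genes. Accessibility moved with this comparison, because 6 of the 7 members had weak regions. Among the 4504 genes whose strongest region had a fold under 9, the median was 0.42% and 1.95% stood above 20%, with 2 of the 6 members in that range above it.

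Asz1 was the most methylated member, with 45 of 72 reads methylated over 11 cytosines, or 62.5% (51.0 to 72.8%), which ranked 5 among the 13471 genes. All of its cytosines lay from 4 to 116 bp before the start, and they ran from 33.3% to 100%, with 9 of the 11 above 50% and none unmethylated. Slc25a31 followed with 32 of 101 reads over 17 cytosines, or 31.7% (23.4 to 41.3%), ranked 44. Its cytosines lay from 7 to 136 bp before the start and ran from 0% to 83.3%, with 3 at 0% and 3 above 50%. The intervals of the pair did not overlap, but they are too narrow, because a fragment read at several cytosines is counted more than once. Each cytosine of the pair had 5 to 9 reads, and all those of Asz1 lay on the same strand. The difference between the pair was not tested. In both genes the measured stretch ended before the start.

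Mael had 38 of 205 reads methylated over 34 cytosines, or 18.5% (13.8 to 24.4%), so its interval reached both sides of 20%. Its methylated cytosines were grouped, since the 4 that lay 190, 191, 198 and 199 bp before the start had 100%, 60%, 80% and 80% on 5 reads each, and the 5 cytosines above 50% were all among those at least 137 bp before it. Upstream of the start it had 22.7% (16.1 to 31.0%) and downstream 12.8% (7.29 to 21.5%), with overlapping intervals. Sycp3 had 34 of 258 reads over 31 cytosines, or 13.2% (9.59 to 17.9%), with 14.9% upstream of the start and 12.3% downstream. The downstream value pools cytosines near the start with those of the intron region, which lay from 782 to 1056 bp downstream. The Mael interval overlapped those of both Sycp3 and Slc25a31.

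Ddx4 had 21 of 232 reads over 38 cytosines, or 9.05% (6 to 13.4%), nearly all of them downstream of the start. Syce1 had 6 of 105 reads over 17 cytosines, or 5.71% (2.64 to 11.9%). Dazl was lowest, with 16 of 1281 reads over 88 cytosines, or 1.25% (0.77 to 2.02%), and 72 of the 88 were at 0%. Its cytosines all lay from 584 to 971 bp downstream of the outermost gene start, so methylation at that start was not measured. The interval of Dazl lay below those of all the other members. No cytosine near the starts of Sycp1, Hormad1 or Tdrd1 was in the table, which covers the merged regions alone.

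**Figure D4:**
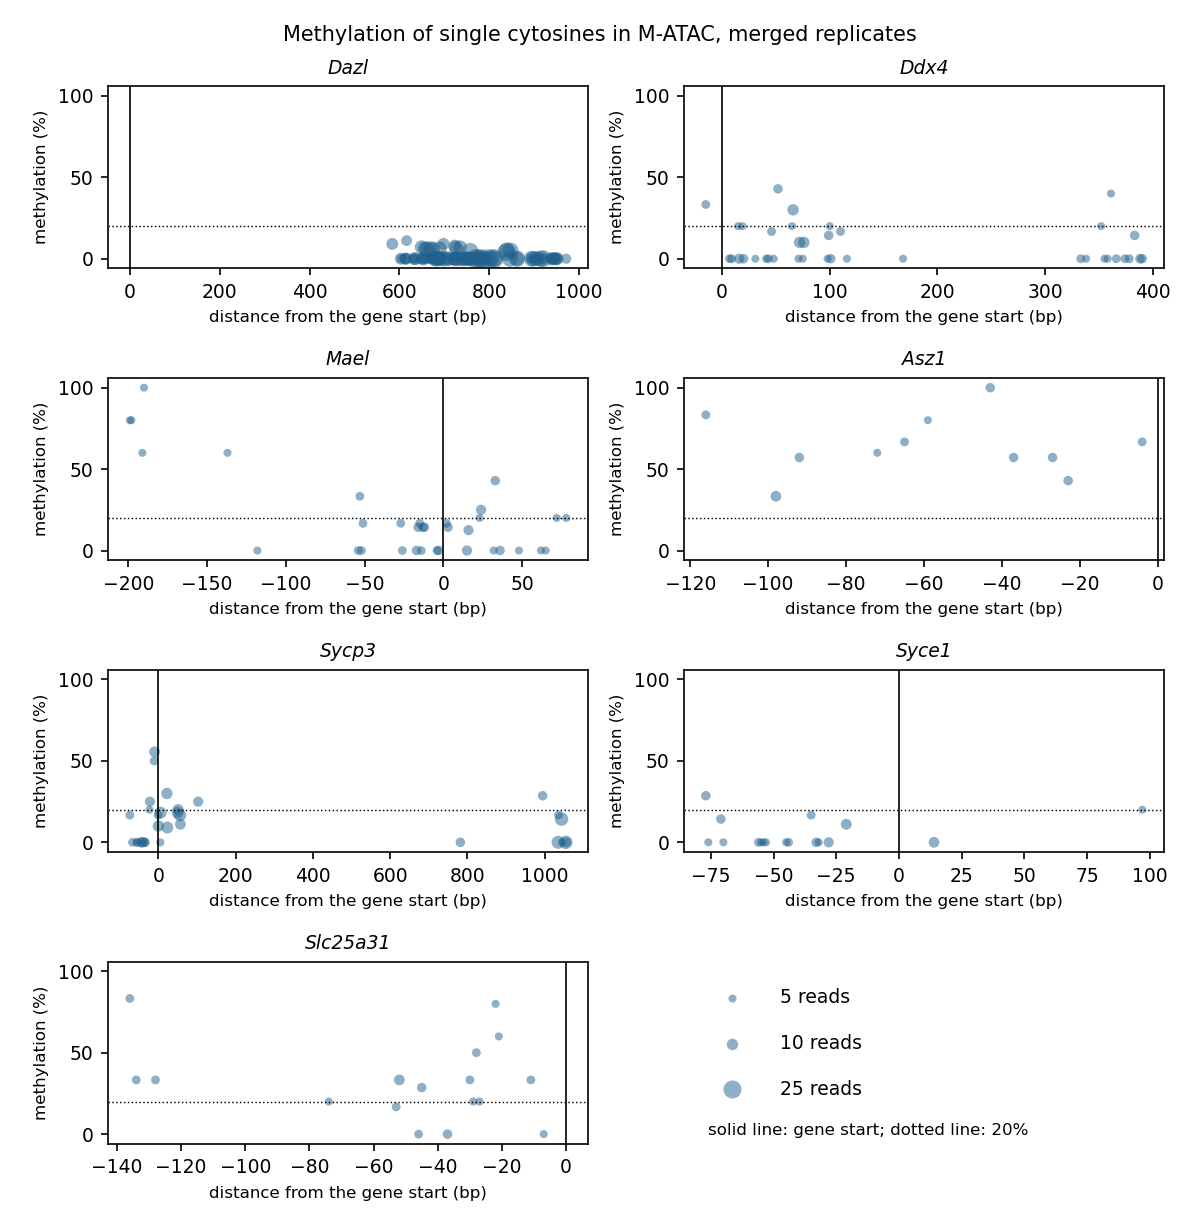
Methylation in percent of single cytosines with at least 5 reads, against distance from the gene start in bp, for the 7 germline genes with reads, with point area proportional to the number of reads. Asz1 has no cytosine under 33.3%, the high Mael cytosines lie at least 137 bp before the start, and Dazl lies near 0% over a stretch downstream of the start.

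The 150 bases before the GENCODE start are printed for Asz1, Slc25a31 and Sycp3, in falling order of methylation. Sycp3 is the lowest of these but not of the members, and it ranked 215 among the 13471 genes. Every run is 5′ to 3′ on the strand of the gene in GRCm38, and capitals mark CpGs with at least 5 reads on a cytosine. The lone capital that ends the Sycp3 run belongs to a CpG that continues past the start.
Asz1, chr6:18109062-18109211: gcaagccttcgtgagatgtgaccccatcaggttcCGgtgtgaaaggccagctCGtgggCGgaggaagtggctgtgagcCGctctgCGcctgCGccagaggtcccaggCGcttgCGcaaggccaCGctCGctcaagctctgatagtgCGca
Slc25a31, chr3:40708705-40708854: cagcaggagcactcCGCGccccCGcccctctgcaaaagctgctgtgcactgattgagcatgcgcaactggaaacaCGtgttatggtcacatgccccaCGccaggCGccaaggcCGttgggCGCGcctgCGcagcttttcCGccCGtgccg
Sycp3, chr10:88459419-88459568: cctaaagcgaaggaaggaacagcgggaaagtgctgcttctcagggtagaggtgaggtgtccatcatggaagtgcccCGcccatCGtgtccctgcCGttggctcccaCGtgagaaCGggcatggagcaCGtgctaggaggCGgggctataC

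The CpG inside an E-box could be read at 3 members. At Sycp3 the upstream copy had 0 of 16 reads methylated (0 to 19.4%) and the downstream copy 3 of 13, or 23.1% (8.18 to 50.3%). At Slc25a31 it was 1 of 9 reads, or 11.1% (1.99 to 43.5%), and at Ddx4 0 of 4 reads (0 to 49.0%). The E2F letters of Ddx4 had 2 of 9 reads methylated, or 22.2% (6.32 to 54.7%), and those of Slc25a31 1 of 2. Over all protein-coding promoters the E-box CpG was methylated in 0.362% of 25684 reads and the CpG of the E2F letters in 0.4% of 23770 reads. These reads were counted at all coverages, and differences between the member sites were not detectable at this depth.

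Methylation and RNA were then set side by side. The most methylated members, Asz1 and Slc25a31, had 0.04 and 1.45 TPM, and the 5 at or under 20% had between 8.54 and 56.30 TPM. The 3 members with no merged region, which have no methylation value, had between 1.6 and 7.97 TPM. Within the 5 the order was not shared. Dazl, read only downstream of its outermost start, had the least methylation and neither the most nor the least RNA. Sycp3 had the most RNA with more methylation than Dazl, Ddx4 and Syce1.

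In other germline genes the RNA ranges of the more and the less methylated overlapped. Of the 65 genes in 3 further lists 62 were matched by symbol, 46 of these had a merged region and 43 had at least 5 measured cytosines. The 8 above 20% ran from 0.18 to 17.78 TPM with a median of 9.50 TPM, and 2 were under 1 TPM. The 35 at or under 20% ran from 0.01 to 132.71 TPM with a median of 7.13 TPM, and 6 were under 1 TPM. The 8 include Tuba3a and Rpl10l, with 10.70 and 11.19 TPM, whose values are uncertain because of close paralogs. The order of these medians is therefore not secure. The 16 without a merged region had a median of 0.34 TPM, and 12 of them were under 1 TPM. These are descriptions across genes of merged samples.

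In the list of the piRNA pathway and nuage, 15 of 20 promoters had a region and 8 genes were under 1 TPM. Mov10l1, an RNA helicase that processes piRNA precursors, had 47.1% methylation (36.8 to 57.6%) and 8.87 TPM. Tdrd12, a Tudor domain protein, had 30.5% (22.9 to 39.3%) and the highest RNA of that list, 17.78 TPM. Henmt1, which methylates piRNA ends, had 30.8% (22.2 to 40.9%) and 0.18 TPM. Tdrkh, a mitochondrial Tudor protein, had 1.54% and 10.21 TPM, Dnd1, an RNA-binding protein of germ cells, had 6.18% and 14.71 TPM, and Piwil2, a PIWI protein, had 12.9% and 9.93 TPM.

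In the meiotic list, 18 of 23 promoters had a region and 9 genes were under 1 TPM. Syce3, a central element protein, had 32.1% methylation (26.4 to 38.3%) and 10.14 TPM, and Terb2, which tethers telomeres in meiosis, had 34.4% (23.9 to 46.6%) and 0.89 TPM. Sycp2, the axis partner of Sycp3, had 16.4% and 0.30 TPM. The highest RNA was that of Syce2, another central element protein, with 84.35 TPM and 0 of 176 reads methylated. The cohesin subunits Stag3 and Rec8 had 28.52 and 23.14 TPM with 0.33% and 4.83% methylation. Stra8, a regulator of meiotic entry, had 16.15 TPM and too few measured cytosines, and Meioc, which prolongs the meiotic programme, had 13.30 TPM and 2.79%.

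In the list of other genes used in germ cells, 13 of 19 promoters had a region and 5 genes were under 1 TPM. Tuba3a had 52.7% methylation (41.5 to 63.7%) and 10.70 TPM, and Rpl10l had 26.6% (20.8 to 33.4%) and 11.19 TPM. Both have close paralogs that can share their reads, so these values are uncertain. Tex19.1, which restrains retrotransposons, had 14.8% (11.5 to 18.9%) and 36.35 TPM. Lin28a, an RNA-binding protein of stem cells, had the highest RNA of that list, 132.71 TPM, with 2.16% methylation. Dppa3, Tfap2c and Prdm14, all used in early germ cells, had 44.21, 22.87 and 18.58 TPM.

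**Figure D5:**
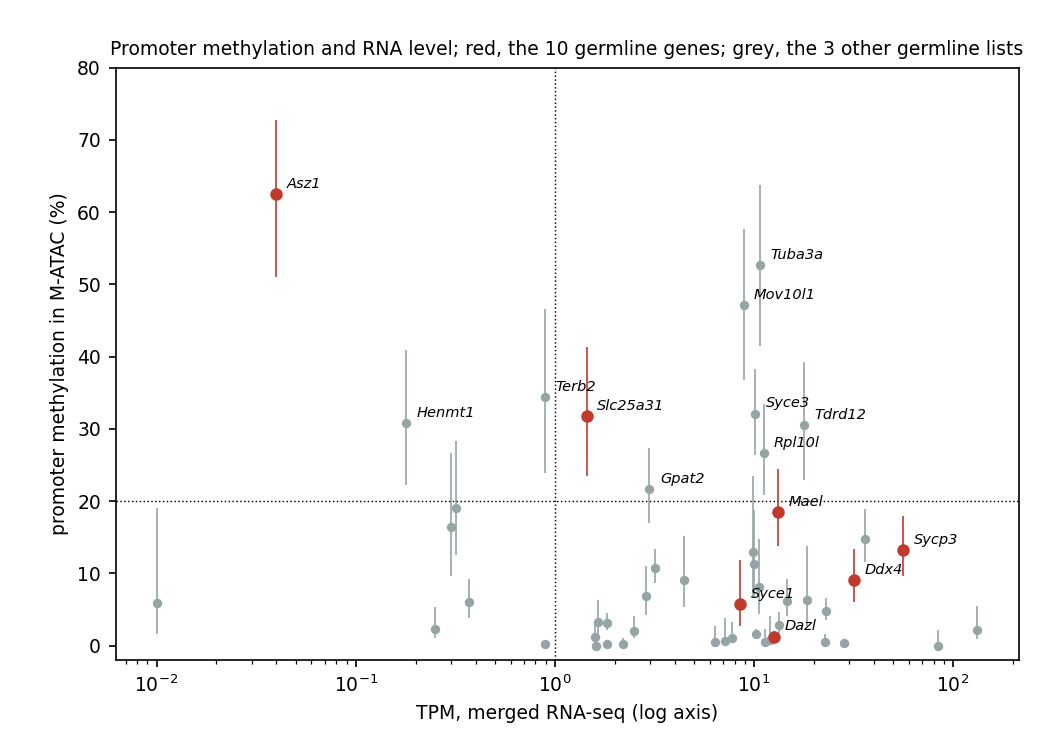
Promoter methylation in M-ATAC in percent, with 95% Wilson intervals, against TPM on a log axis, for the germline genes with at least 5 measured cytosines, with the 10 germline genes in red and the 3 further lists in grey. Asz1 stands alone at the upper left, while Tuba3a, Mov10l1, Syce3, Rpl10l and Tdrd12 combine over 20% methylation with more than 8 TPM.

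CTCF, the zinc finger protein that binds insulators and chromatin loop anchors, was asked for within 10 kb of a start. In the merged CTCF-M-ChIP data 2 of the 10 members had a region, Asz1 and Dazl, against 55.0% of all protein-coding genes. Per library the members numbered 2 and 3 in CTCF-M-ChIP, against 50.4% and 48.0% of genes, 2 and 2 in CTCF-M-ChIP-NC, against 41.0% and 48.6%, and 4 and 4 in CTCF-ChIP, against 55.5% and 62.5%. The difference was 0.5 between CTCF-M-ChIP and its unconverted control (p = 1), −1.5 between CTCF-M-ChIP and CTCF-ChIP (p = 0.333) and −2 between CTCF-M-ChIP-NC and CTCF-ChIP (p = 0.333), all by exact two-sided permutation tests with n = 2 in each group, where 0.333 is the smallest possible p. The last 2 tests had an adjusted p of 0.5. The CTCF-ChIP libraries, whose counts did not overlap those of the others, also had the most regions, 40046 and 49633 against 22261 to 32911, and the part of depth was not tested.

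The Asz1 region lay in an intron, 3600 bp from an internal start and 30085 bp or more from the gene start, on chromosome 6 from 18078707 to 18078976. Its fold was 13.0 and 12.4 in CTCF-M-ChIP, 10.3 and 8.51 in CTCF-M-ChIP-NC, and 10.5 and 12.7 in CTCF-ChIP, so the groups overlapped. The Dazl intron region, 1138 bp from the nearest start, was weaker, with 5.72 and 4.24 in CTCF-M-ChIP, 5.45 and 4.60 in CTCF-M-ChIP-NC, and 6.71 in CTCF-ChIP replicate 2. Both CTCF-ChIP libraries had a further Dazl region at the alternative start, with a fold of 9.64 and 13.9, over the accessible stretch described above. None of the 4 libraries with methylated adaptors had it. CTCF-ChIP alone had a region within 10 kb of a start of Sycp1 (7.23 and 8.06) and of Syce1 (4.39 and 5.94). The Sycp1 regions lay in an intron, 8652 and 8683 bp from an internal start and 93379 bp or more from the gene start. Those of Syce1 lay upstream, 9854 and 9903 bp from the nearest start. CTCF-M-ChIP replicate 2 alone had a region at Sycp3 (3.52), 9475 bp from the nearest start.

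The authors' motif list placed a match to the CTCF matrix in both merged regions, and at Asz1 a second, weaker one on the other strand over nearly the same bases, with a score of 7.80. The stronger matches are printed in capitals in full, since the whole run is the motif, on the strand of the match in mm10.
Dazl CTCF motif, chr17:50291659-50291677, plus strand: TATCCAGTAGGTGGCACTC
Asz1 CTCF motif, chr6:18078807-18078825, minus strand: TGACCACTAGAGGGAACCA
The scores of the motif scan were 20.1 at Dazl and 20.95 at Asz1. Neither printed match contains a CpG, and no cytosine of any of the matches was in the deposited CTCF methylation table, so no methylation could be read at these CTCF motifs.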

How the data were processed

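The authors trimmed reads (Trim Galore 0.4.4), aligned them to mm10 with Bismark 0.18.1 for converted and bowtie2 for other libraries, removed reads of quality under 30 and duplicates with SAMtools 1.3, and called regions with MACS2 at a q-value of 0.01. The deposited region lists hold per summit a score, its enrichment as a ratio (fold) and the −log10 of its p-value and q-value, and the KLF4 lists of the authors a p-value per region. The methylation tables of the authors give the count of methylated and unmethylated reads and a percent per cytosine of merged replicates, which are not named. FIMO matches were deposited with their score and p-value. The deposited expression values are TPM of merged samples counted without strand; the submitters' notes name HTSeq, and the RNA aligner is not given in the sources used here.

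Here distinct regions were intersected with GENCODE M21 starts (1 kb, CTCF 10 kb), and M-ATAC cytosines with at least 5 reads were pooled per gene. Of 47606 expression identifiers 47187 matched GENCODE. Of 32752 cytosines checked against the genome 100% lay in a CpG. The members and lists were chosen with earlier results of these data known. Genes named from each of the 3 germline lists were the 5 highest TPM and the 3 highest lower Wilson bounds. From the repressor and DNA methylation lists the 5 highest TPM were named, with a few other genes beside them for their role or level. From the stem cell and feeder lists only a few markers were named. Samples were compared by exact two-sided permutation tests with Benjamini-Hochberg adjustment. The permutation test was run on simulated data, where the sample sizes fixed the outcome, so those runs check the code and not its error rate. The adjustment was not simulated. Reads per library were not used here, so depth is given as numbers of regions. Merged values have no replicates. Alternatives covered windows, coverage, thresholds, starts, left-out replicates and the replicate block. Python 3.11.15, numpy 2.4.6 and matplotlib 3.10.9 were used.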

Additional observations from a re-analysis of the deposited data

Results flagged for a closer look

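The KLF4 region lists were outside every comparison above. In these lists Sycp3 had a region over its start in 2 of the 2 lists of Klf4-/- mESC that re-express WT KLF4, with p-values of 4.9e-05 and 6.9e-05 from the authors' peak caller, and in none of the lists of cells with R462A KLF4 or no KLF4. All protein-coding genes with such a region numbered 1872 and 3287 in the WT lists, 304 and 291 in the R462A lists and 2064 and 2595 in the Klf4-/- lists, of 21938. The lists of the WT and R462A cells belong to samples titled M-ATAC although they hold KLF4 regions, so what they measured is uncertain. Tdrd1 was in a WT list and in a Klf4-/- list, and Syce1 in a Klf4-/- list.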

How the results depend on the processing

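The count of 7 members with a merged M-ATAC region was the same under every window, q-value and start setting run. It was 2 when a call in at least 2 of the 4 M-ATAC samples was asked. The share of all protein-coding genes under that rule is not given here, so this drop cannot be read as particular to the members. Pooled member methylation was 11.6% with a minimum of 1 read, 2.73% with 10 reads (which leaves few cytosines outside Dazl), 12.1% as the mean over cytosines and 11% with both strands of a CpG summed, and 18.1% without Dazl, a setting chosen after seeing the data. Members above 20% numbered 3 with a minimum of 1 read and 3 with both strands summed, settings likewise chosen after seeing the data. The share of all genes under these settings is not given here. A minimum of 10 reads gave 0 by construction, since no cytosine of Asz1 or Slc25a31 had more than 9 reads. Members with a merged CTCF region numbered 8 within 50 kb, where 83.5% of all protein-coding genes had one. Members under 5 TPM numbered 4, against 55.2% of genes. The median CpG ratio was 0.582 over 1 kb on each side of the start, against a median of 0.474 for all genes over that stretch. Over that stretch 9 of the 10 members had CACGTG and 5 had TTCCCGC, against 27.5% and 20.7% of protein-coding genes. Within 5 kb all 3 CTCF differences were 0. The cause of the other shifts was not tested.

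Leaving out 1 replicate gave differences in members with a region of −3.75 to −0.75 for M-ATAC against either other group, −1.5 to 1.5 for M-ATAC-NC against ATAC, 0 to 1 for CTCF-M-ChIP against CTCF-M-ChIP-NC, −2 to −1 for CTCF-M-ChIP against CTCF-ChIP and −2 throughout for CTCF-M-ChIP-NC against CTCF-ChIP. Where an arm was left with 1 sample there was no test. Regions with a −log10 q of at least 5 gave M-ATAC a difference of −2 with p = 0.0667, the smallest the exact permutation test allows. The share of all protein-coding genes at that threshold is not given here, so this difference cannot be read as particular to the members. With samples paired by replicate number as a block, the differences were −2, −2, 0, 0.5, −1.5 and −2 in the order of the comparisons, and with M-ATAC replicates 3 and 4 as numbers 1 and 2, a pairing chosen after seeing the data, the first pair were −2.5. The exact sign-flip p was 0.5 or 1, and 0.5 is its smallest. Replicate 1 minus 2, correlated over genes between groups, ran from −0.00781 to 0.0499, which does not show whether equal numbers mark aliquots of the same sample, and the sources used here do not tie them by number. The block changed no call. Coverage limits single cytosines, most of which had 5 to 10 reads outside Dazl.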
